A study of Mus musculus with 10 samples.

Results

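The genes described here are the 10 that make up the classical MHC class I pathway from the cytosol to the cell surface: H2-K1, H2-D1, B2m, Tap1, Tap2, Tapbp, Nlrc5, Psmb8, Psmb9 and Psmb10. They were taken by name out of 55494 annotated genes with summed reads, of which 13729 were expressed highly enough to be tested, and all 10 were among the tested genes. Their levels were compared between leukemia initiating cells of 5 Eμ-RET pups treated with 20 µg of Poly(A:U), which is a synthetic RNA duplex, and of 5 Eμ-RET pups treated with 50 µl of PBS. All 10 pups carried the RFP/RET fusion transgene, which the immunoglobulin heavy chain enhancer Eμ drives in B lineage cells, and their age is given as 13 days. The cells were sorted from spleen 7 days after treatment, each library being one pup. The sources used here do not give the strain or MHC haplotype of the pups.

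MHC class I molecules display peptides from inside the cell to CD8 T cells and natural killer cells. The immunoproteasome cuts cytosolic proteins into peptides, the TAP transporter carries these into the endoplasmic reticulum, tapasin holds empty class I molecules at the transporter until a peptide is bound, and a heavy chain paired with beta-2-microglobulin then travels to the surface. NLRC5 switches on the heavy chain, light chain, transporter and immunoproteasome genes together, and interferons raise all of them. B lineage cells express the pathway without stimulation.

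On the mouse build mm10, 7 of the 10 genes lie on chromosome 17, in and beside the MHC. H2-K1 (33996017 to 34000347, minus strand) and H2-D1 (35262730 to 35267499, plus strand) encode the classical heavy chains. Psmb9 (34181987 to 34187764, minus strand) and Tap1 (34187553 to 34197225, plus strand) overlap at their starts and are read in opposite directions, and Psmb8 (34197721 to 34201454) and Tap2 (34203527 to 34216321) follow on the plus strand. Tapbp, which encodes tapasin, runs from 33915899 to 33929292 on the plus strand. B2m lies on chromosome 2 (122147686 to 122153083), and Nlrc5 (94434356 to 94527272) and Psmb10 (105935735 to 105938444) lie on chromosome 8.

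Promoter windows of 250 bases before to 50 bases after the start were on hand for 8 of the 10 genes, from RefSeq on GRCm38.p6. Those of the heavy chains, the light chain and the transporter are shown because these genes had the lowest fold changes of the 10. Capitals mark matches on either strand to GGGNNTCCC (a form of the kappaB core of class I promoters) and GAANNGAAA (a form of the interferon response element core). They also mark TGACG (core of the X2 box) and CCAAT (core of the Y box), these boxes being parts of the module through which NLRC5 acts. Only these exact spacings were searched. Longer forms, such as gaaactgaaa and gggaaagtccc in the B2m window, are therefore not marked, and a window without a match may still hold such an element. One kappaB core in each heavy chain window matches on both strands at the same bases, and no other matches overlap. They are, in this order, chr17:34000298-34000597 (minus strand), chr17:35262844-35263143 (plus strand), chr2:122147437-122147736 (plus strand) and chr17:34187306-34187605 (plus strand).
H2-K1: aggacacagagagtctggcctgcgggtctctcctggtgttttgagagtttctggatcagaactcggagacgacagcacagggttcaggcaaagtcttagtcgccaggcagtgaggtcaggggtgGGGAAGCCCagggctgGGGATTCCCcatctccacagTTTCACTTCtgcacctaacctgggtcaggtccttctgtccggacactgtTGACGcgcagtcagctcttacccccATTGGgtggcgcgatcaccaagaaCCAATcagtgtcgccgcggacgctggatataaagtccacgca
H2-D1: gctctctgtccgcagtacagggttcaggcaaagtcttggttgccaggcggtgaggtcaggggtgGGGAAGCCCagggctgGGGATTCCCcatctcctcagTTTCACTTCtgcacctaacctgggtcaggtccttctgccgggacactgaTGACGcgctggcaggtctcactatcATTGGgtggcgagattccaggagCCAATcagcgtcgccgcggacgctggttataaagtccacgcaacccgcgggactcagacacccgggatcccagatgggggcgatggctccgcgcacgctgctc
B2m: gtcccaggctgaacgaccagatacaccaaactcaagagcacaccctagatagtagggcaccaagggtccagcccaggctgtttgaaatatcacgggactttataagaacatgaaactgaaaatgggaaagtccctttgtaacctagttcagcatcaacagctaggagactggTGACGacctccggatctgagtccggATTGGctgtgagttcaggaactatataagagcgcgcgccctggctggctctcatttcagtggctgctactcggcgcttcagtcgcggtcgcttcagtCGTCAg
Tap1: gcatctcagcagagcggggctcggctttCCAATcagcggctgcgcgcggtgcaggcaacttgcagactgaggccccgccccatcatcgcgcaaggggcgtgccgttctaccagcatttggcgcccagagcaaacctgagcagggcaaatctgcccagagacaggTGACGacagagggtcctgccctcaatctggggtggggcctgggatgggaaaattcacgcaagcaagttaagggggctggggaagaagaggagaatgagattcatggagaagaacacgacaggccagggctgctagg

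The H2-K1 and H2-D1 windows held the same matches in the same order, a pair of kappaB cores, an interferon element, an X2 core and a pair of Y cores. In these exact forms, the kappaB core was in 5.66% of all 32851 mouse promoter windows, the interferon element in 7.52%, the X2 core in 20.8% and the Y core in 37.4%. B2m had an X2 core 78 bases and a Y core 53 bases before its start, and a second X2 core after it. The windows of Tap1 and Psmb9 share 275 bases, so the X2 core and the Y core in them are the same bases read from either side. Tapbp had Y cores only, and no match to any of the 4 was found in the windows of Psmb8 and Psmb10. The Tapbp window (33919228 to 33919527) and the Psmb8 window (34197945 to 34198244) lie wholly inside the gene spans given above. So do the windows of H2-D1 and Psmb9. These windows belong to other starts than those of the spans, so the starts of those spans were not searched.

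The libraries held between 17859006 and 22587871 estimated reads. All 10 markers of B cell precursors were detected, with a summed level of 9833 to 11430 CPM in Poly(A:U) libraries and 7997 to 12800 CPM in PBS libraries. PBS 1 to PBS 3 have names with a common start that no other library has, and they stood apart in several markers. Their B cell precursor sum was 12120 to 12800 CPM, against 7997 to 11430 CPM in the other 7 libraries, and their 6 mature B cell markers summed to 707 to 743 CPM, against 494 to 688 CPM. Their 8 neutrophil markers summed to 685 to 1029 CPM, against 29.1 to 258 CPM in the other 7 libraries, their 8 erythroid markers to 138 to 432 CPM, against 1354 to 12300 CPM, and the Y-linked gene Ddx3y was at 42.8 to 51.6 CPM, against at most 4.67 CPM. PBS 4 had the highest sums of the 7 T cell markers, 217 CPM against at most 36.4 CPM elsewhere, and of the 8 macrophage markers, 146 CPM against at most 36.1 CPM. The fold changes of genes and lists were therefore also computed without PBS 1 to PBS 3 and without PBS 4. The setting without PBS 1 to PBS 3 compares the Poly(A:U) libraries with PBS 4 and PBS 5 alone. In it, the absence of PBS 1 to PBS 3, the small group and the weight of PBS 4 cannot be told apart. In sorted bulk cells, fewer cells that express a gene and less RNA per cell cannot be told apart. The part of these other cell types and of sex in the results was not tested.

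Per transcript length, the light chain and the heavy chains were the most abundant of the 10. Over the 10 libraries B2m averaged 1925 ± 314 TPM, H2-K1 1792 ± 393 TPM and H2-D1 999 ± 191 TPM (SD, n = 10). B2m exceeded H2-K1 in 7 of 10 libraries, so their order was not stable, while H2-K1 exceeded H2-D1 in 10 of 10. The immunoproteasome subunit gene Psmb8 followed at 263 ± 21.96 TPM, then Psmb10 at 142 ± 15.4 TPM, Tapbp at 131 ± 19.9 TPM and Psmb9 at 102 ± 10.7 TPM. Psmb10 was above Tapbp in 8 of 10 libraries. The transporter genes Tap1 and Tap2 stood at 66.0 ± 12.51 and 52.1 ± 6.87 TPM, and the transactivator Nlrc5 was the lowest at 12.2 ± 2.64 TPM.

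This order depended on which transcripts were counted. A short retained-intron transcript, H2-K1-215, took 39.0% of the reads of H2-K1 over all libraries, and with protein-coding transcripts alone H2-K1 averaged 423 ± 79.7 TPM, below H2-D1 at 915 ± 179 TPM in 10 of 10 libraries. Of the reads of Tap2, 80.7% were assigned to the retained-intron transcript Tap2-202, and its coding level was 9.15 ± 2.68 TPM, above Nlrc5 at 8.20 ± 3.56 TPM in 5 of 10 libraries only. Transcripts not typed as protein-coding also took 58.0% of the reads of Psmb8, 52.9% of Psmb9 and 33.7% of Psmb10. They took 3.02% of H2-D1 and none of B2m, which has 1 annotated transcript. For Psmb9, 44.2% of the reads were on Psmb9-207, which is typed as a nonsense-mediated decay transcript. By treatment, the share of H2-K1-215 was 39.3% ± 3.00 in Poly(A:U) and 38.2% ± 3.43 in PBS, and that of Tap2-202 was 80.7% ± 1.48 and 80.8% ± 1.31 (SD, n = 5 each).

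None of the 10 genes passed edgeR's quasi-likelihood test between Poly(A:U) and PBS. Of all 13729 tested genes, that test called 0 (0% of those tested), with 438 lower (3.19%) and 564 higher (4.11%) at an unadjusted p below 0.05, while DESeq2's Wald test called 13 and limma voom with quality weights 870, with Tap1 among them. All 10 class I genes had a negative log2 fold change, where 50.6% of all tested genes did, and their median was -0.21, beside 0.00 over all tested genes. At an unadjusted p below 0.05, 3 of the 10 were lower in Poly(A:U), H2-D1, B2m and Tap1, and none was higher. Without PBS 1 to PBS 3, which leaves PBS 4 and PBS 5, 5 of 10 were negative, beside 7511 of 15199 tested genes. The median was then -0.03, and 0 of 10 were lower at that p, beside 5.14% of all tested genes. Without PBS 4 the count was 6 of 10, beside 6.69%.

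**Figure D1:**
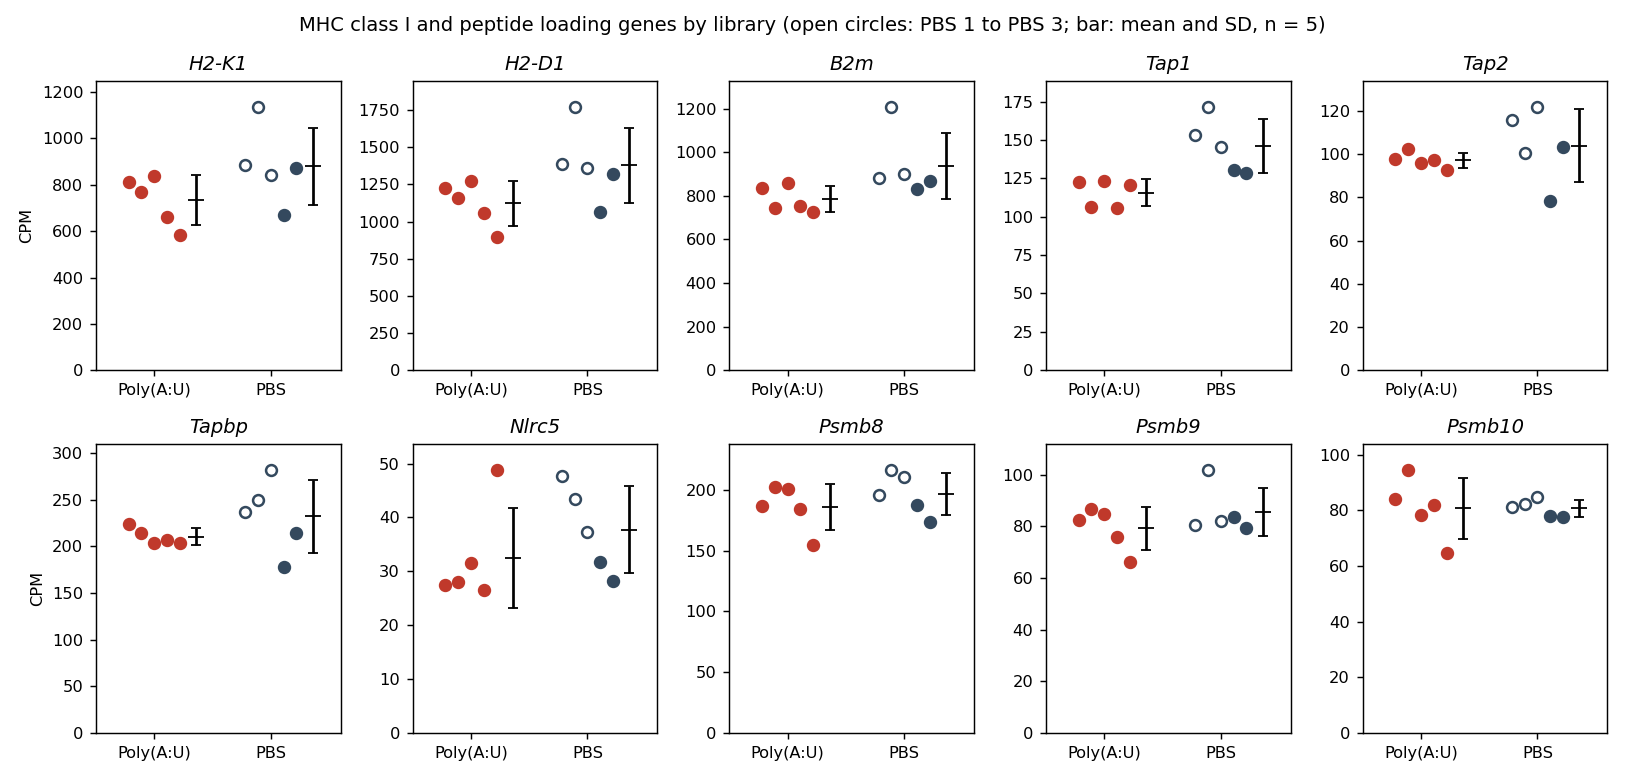
Level of each of the 10 genes in CPM (vertical axes, each from 0) in the 5 Poly(A:U) and 5 PBS libraries. Circles are libraries, open for PBS 1 to PBS 3, and bars give the mean and SD. Tap1 is the 1 gene whose groups do not overlap, and Nlrc5 has a single high Poly(A:U) library at 48.8 CPM.

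The light chain gene B2m stood at 835, 746, 860, 755 and 728 CPM in Poly(A:U) 1 to 5, against 881, 1206, 900, 833 and 869 CPM in PBS 1 to 5. The groups overlapped only through PBS 4, which lay below Poly(A:U) 1 and Poly(A:U) 3, and PBS 2 was far above the rest. The log2 fold change of B2m was -0.28 ± 0.11 (SE; unadjusted p = 0.0272, adjusted p = 0.677, edgeR), and without PBS 2 it was -0.17 (unadjusted p = 0.0835).

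The heavy chain gene H2-K1 was at 813, 767, 840, 662 and 582 CPM in Poly(A:U) 1 to 5, against 884, 1134, 841, 668 and 874 CPM in PBS 1 to 5. PBS 2 was again the highest library, and PBS 4 lay within the range of the Poly(A:U) libraries, so that the groups overlapped. Its log2 fold change was -0.29 ± 0.15 (SE; adjusted p = 0.695, edgeR), with a 95% interval of -0.60 to 0.03. Without PBS 2 it was -0.18.

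H2-D1, the other heavy chain gene, was at 1225, 1160, 1273, 1057 and 894 CPM in Poly(A:U) 1 to 5, against 1388, 1769, 1358, 1062 and 1317 CPM in PBS 1 to 5. All PBS libraries but PBS 4 were above all Poly(A:U) libraries. The log2 fold change of H2-D1 was -0.32 ± 0.14 (SE; unadjusted p = 0.0431, adjusted p = 0.677, edgeR). Without PBS 2 it was -0.21 (unadjusted p = 0.136 by edgeR). Without PBS 1 to PBS 3 the log2 fold changes were -0.15 for B2m, -0.10 for H2-K1 and -0.11 for H2-D1. Reads of the heavy chain genes are shared with near-identical paralogs, and these genes differ between mouse strains, so the split between H2-K1, H2-D1 and other class I genes is uncertain.

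On log2 CPM, H2-K1 and B2m correlated over the 10 libraries with Pearson's r = 0.881 (permutation p = 0.00113, adjusted p = 0.00339 over 3 relations) and Spearman's rho = 0.927 (permutation p = 0.00033, adjusted p = 0.00099). The permutations moved libraries across treatment groups, so a shift between groups that both genes share enters these p-values. Correlation within a group was not tested. Without Poly(A:U) 5 and PBS 2, the 2 libraries farthest from the median of H2-K1, r was 0.685, and over the 7 libraries other than PBS 1 to PBS 3 it was 0.748. The TPM ratio of H2-K1 to H2-D1 ran from 1.66 to 1.98 in Poly(A:U) libraries and from 1.65 to 1.90 in PBS libraries, ranges that overlap almost wholly.

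Tap1 and Tap2 encode the 2 subunits of the peptide transporter. Tap1 was at 123, 107, 123, 106 and 120 CPM in Poly(A:U) 1 to 5, against 153, 171, 146, 131 and 128 CPM in PBS 1 to 5. All 5 Poly(A:U) libraries lay below all 5 PBS libraries, which was so for 0.168% of all tested genes, and Tap1 was the 1 gene of the 10 for which it held. The margin was narrow, since the highest Poly(A:U) library was at 123.3 CPM and the lowest PBS library at 128.3 CPM. The log2 fold change of Tap1 was -0.36 ± 0.09 (SE), a 0.78-fold level, with a 95% interval of -0.56 to -0.16 (unadjusted p = 0.00185, adjusted p = 0.677, edgeR). DESeq2's Wald test gave an adjusted p of 0.0734 and limma voom with quality weights 0.0325, and over all alternatives the adjusted p lay between 0.0325 and 0.918. Without PBS 1 to PBS 3 the log2 fold change of Tap1 was -0.19, and PBS 1 to PBS 3 were its 3 highest libraries, at 145.6 to 171.2 CPM.

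Tap2, the partner subunit, was at 97.8, 102, 95.8, 97.5 and 92.5 CPM in Poly(A:U) 1 to 5, against 116, 100.5, 122, 78.6 and 103 CPM in PBS 1 to 5. The Poly(A:U) libraries lay close together inside the range of the PBS libraries, whose lowest was PBS 4. The log2 fold change of Tap2 was -0.12 ± 0.11 (SE; adjusted p = 0.763, edgeR), -0.06 without PBS 3 and -0.20 without PBS 4. The TPM ratio of Tap1 to Tap2 was 1.01 to 1.29 in Poly(A:U) libraries and 1.17 to 1.69 in PBS libraries, and the groups overlapped.

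Tapbp encodes tapasin, which joins the transporter to class I molecules. It stood at 224, 215, 204, 207 and 203 CPM in Poly(A:U) 1 to 5, against 237, 249.7, 282, 178 and 215 CPM in PBS 1 to 5. PBS 1 to PBS 3 were above all Poly(A:U) libraries, and PBS 4 was below them all. Its log2 fold change was -0.16 ± 0.11 (SE; adjusted p = 0.7098, edgeR). Without PBS 3 alone it was -0.08, and without PBS 1 to PBS 3 it was 0.07.

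The transactivator gene Nlrc5 had the largest SE among the fold changes of the 10 genes. It was at 27.4, 28.0, 31.6, 26.5 and 48.8 CPM in Poly(A:U) 1 to 5, against 47.8, 43.5, 37.4, 31.7 and 28.2 CPM in PBS 1 to 5. Poly(A:U) 5 was the highest of the 10 libraries, while the other 4 Poly(A:U) libraries lay below 4 of the 5 PBS libraries. The log2 fold change of Nlrc5 was -0.25 ± 0.18 (SE; adjusted p = 0.727, edgeR), -0.43 without Poly(A:U) 5, -0.15 without PBS 1 and 0.08 without PBS 1 to PBS 3. Poly(A:U) 5 had at the same time the lowest level of 6 of the 10 genes, among them H2-K1, H2-D1 and B2m. Nlrc5 and H2-K1 gave no correlation that passed the test over the 10 libraries (Pearson's r = 0.137, permutation p = 0.704; Spearman's rho = 0.261, permutation p = 0.469; adjusted p = 0.704 and 0.469 over 3 relations). This value rested on few libraries, r being 0.715 without Poly(A:U) 5 and PBS 1 and -0.647 over the 7 libraries other than PBS 1 to PBS 3.

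The immunoproteasome subunits replace the 3 catalytic subunits of the constitutive proteasome, Psmb8 in place of Psmb5, Psmb9 of Psmb6 and Psmb10 of Psmb7. Psmb8 was at 187, 202, 200.2, 184 and 154 CPM in Poly(A:U) 1 to 5, against 195, 216, 211, 188 and 173 CPM in PBS 1 to 5, and the groups overlapped. Psmb9 was at 82.5, 86.6, 84.9, 75.9 and 66.1 CPM in Poly(A:U) 1 to 5, against 80.5, 102, 82.2, 83.5 and 79.4 CPM in PBS 1 to 5, with PBS 2 far above the rest. Psmb10 was at 84.0, 94.5, 78.2, 81.8 and 64.6 CPM in Poly(A:U) 1 to 5, against 81.3, 82.4, 84.6, 78.0 and 77.5 CPM in PBS 1 to 5, its highest and its lowest library both being Poly(A:U) ones. The log2 fold changes were -0.11 ± 0.10, -0.13 ± 0.11 and -0.02 ± 0.11 (SE), with adjusted p of 0.788, 0.742 and 0.963 by edgeR, and 95% intervals of -0.33 to 0.12, -0.36 to 0.10 and -0.25 to 0.21. Leaving out single libraries moved Psmb8 to between -0.16 and -0.04, the value nearest 0 coming without Poly(A:U) 5. It moved Psmb9 to between -0.19 and -0.06, the value nearest 0 coming without PBS 2, and Psmb10 to between -0.11 and 0.05.

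**Figure D2:**
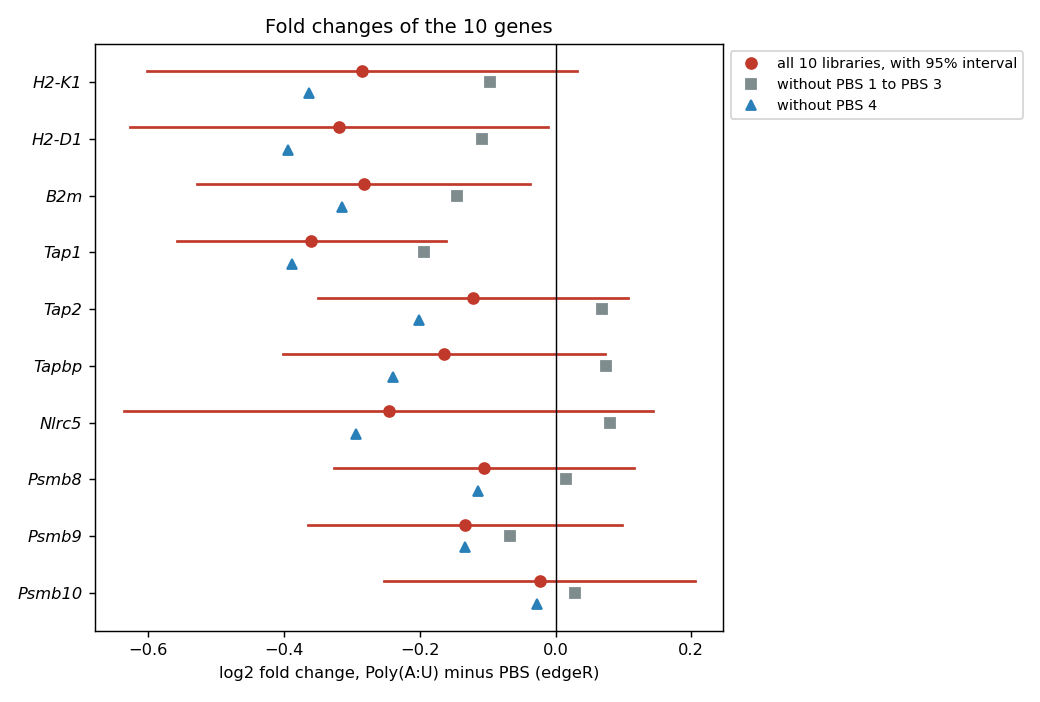
Log2 fold change, Poly(A:U) minus PBS, of the 10 genes by edgeR with all 10 libraries (circles, lines for the 95% interval), without PBS 1 to PBS 3 (squares) and without PBS 4 (triangles). The squares lie nearer to 0 than the circles for all genes but Psmb10, at -0.02 and 0.03, and 5 of the 10 are above 0.

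Each immunoproteasome gene was also set against the gene of the subunit that it replaces, as a ratio of TPM within a library, which no scaling between libraries can move. The ratio of Psmb8 to Psmb5 was 2.24, 1.98, 2.07, 1.93 and 2.04 in Poly(A:U) 1 to 5, against 2.25, 2.09, 2.22, 2.26 and 2.13 in PBS 1 to 5. Poly(A:U) 1 lay among the PBS libraries and the other 4 Poly(A:U) libraries below them. The mean log2 ratio differed by -0.10 (exact two-sided permutation p = 0.0476, adjusted p = 0.143 over 3 ratios). Taken over protein-coding transcripts alone, this difference was -0.14 (exact permutation p = 0.405), and as a ratio of CPM it was -0.09 (exact permutation p = 0.0952). That of Psmb9 to Psmb6 was 0.332 to 0.428 in Poly(A:U) libraries and 0.338 to 0.466 in PBS libraries, a log2 difference of -0.17 (exact permutation p = 0.135, adjusted p = 0.202). Psmb10 to Psmb7 gave 0.691 to 1.07 in Poly(A:U) libraries and 0.632 to 0.991 in PBS libraries, a log2 difference of -0.07 (exact permutation p = 0.675, adjusted p = 0.675), and of -0.12 over protein-coding transcripts alone. None of the 3 passed the adjusted threshold of 0.05. With 5 libraries a group the smallest exact p is 0.00794.

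Tap1 and Psmb9, whose promoter windows share 275 bases, overlap at their starts and are read in opposite directions. Their log2 fold changes were -0.36 and -0.13. The TPM ratio of Tap1 to Psmb9, a comparison chosen after the values were seen and not tested, was 0.616, 0.455, 0.587, 0.570 and 0.729 in Poly(A:U) 1 to 5, against 0.841, 0.666, 0.741, 0.658 and 0.624 in PBS 1 to 5. Poly(A:U) 5 lay among the PBS libraries and the other 4 below them. Across the 10 libraries the log2 CPM of the genes gave Pearson's r = 0.516 (permutation p = 0.122, adjusted p = 0.183 over 3 relations) and Spearman's rho = 0.333 (permutation p = 0.345, adjusted p = 0.469). Without PBS 1 and PBS 2, the libraries farthest from the median of Tap1, r was 0.117, and without PBS 1 to PBS 3 it was 0.0383.

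**Figure D3:**
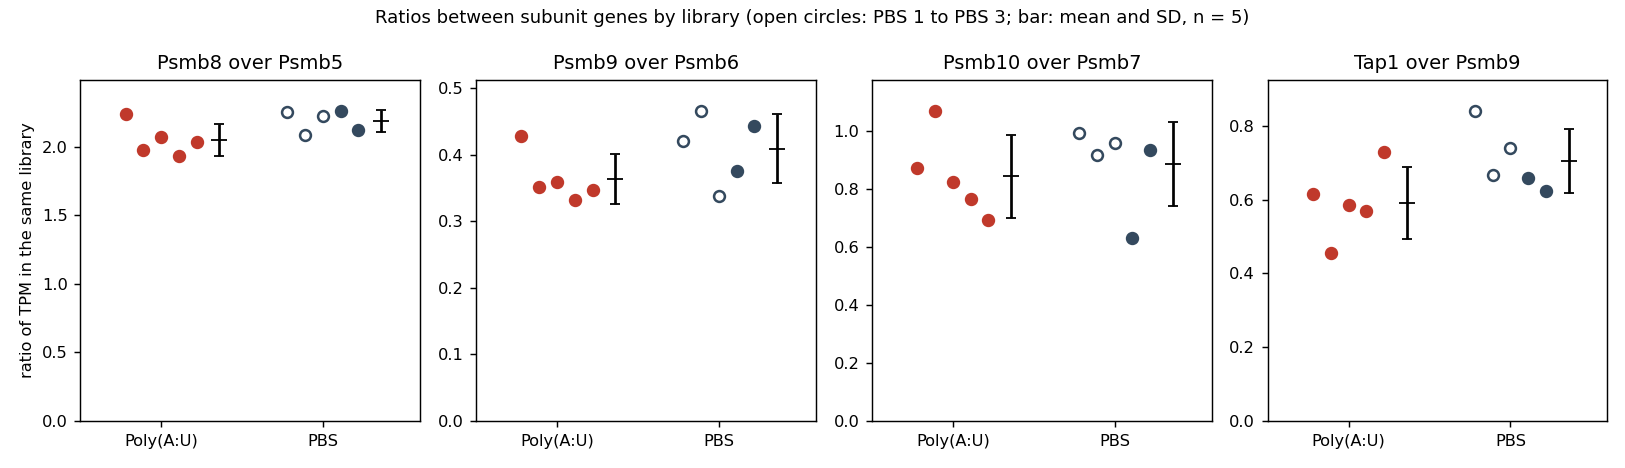
TPM ratios within a library (vertical axes, each from 0) of the immunoproteasome genes to the genes of the subunits they replace, and of Tap1 to Psmb9, in Poly(A:U) and PBS libraries. Circles are libraries, open for PBS 1 to PBS 3, and bars give the mean and SD. The groups overlap in all 4 panels.

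The other class I chains are nonclassical and class I-like heavy chains, which present special peptides or lipids or have other tasks. Of 18 genes in the list 15 were tested, and the median log2 fold change was -0.34. It was negative for 14 of the 15, beside 50.6% of all tested genes. None passed edgeR's adjusted test, 9 were lower at an unadjusted p below 0.05, beside 3.19% of all tested genes, and none was higher. H2-Q7, a Qa-2 heavy chain gene, was at 26.6, 26.5, 35.96, 25.8 and 23.1 CPM in Poly(A:U) 1 to 5, against 41.0, 50.7, 30.1, 33.0 and 43.6 CPM in PBS 1 to 5, overlapping through Poly(A:U) 3. Its log2 fold change was -0.55 ± 0.15 (SE; unadjusted p = 0.00367, adjusted p = 0.677, edgeR).

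H2-Q1 was at 21.1, 20.0, 22.4, 18.5 and 17.4 CPM in Poly(A:U) 1 to 5, against 25.5, 25.2, 26.3, 24.1 and 23.1 CPM in PBS 1 to 5. All its Poly(A:U) libraries lay below all its PBS libraries, which was so for 0.168% of all tested genes. The log2 fold change was -0.34 ± 0.10 (SE; unadjusted p = 0.00389, adjusted p = 0.677, edgeR). The other 7, named after their values were seen, were H2-Q2, H2-Q4, H2-Q6, H2-Q10, H2-T23, H2-T24 and H2-M3, with log2 fold changes between -0.52 and -0.31. Reads of the H2-Q genes in particular are shared out among near-identical copies, so these counts are not independent of each other. Without PBS 1 to PBS 3 the count was 2 of 15, beside 5.14% of all tested genes. The median was then -0.27, and 12 of 15 were negative, beside 7511 of 15199 tested genes. Without PBS 4 the count was 9 of 15, beside 6.69%, with a median of -0.36. The 4 tested chains nearest to 0, named after their values were seen, were H2-T22, Hfe, Mr1 and the lipid-presenting Cd1d1, with log2 fold changes between -0.08 and 0.03.

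Peptides are also supplied by the constitutive proteasome. Of 15 genes of the core proteasome and its assembly factor, 0 passed edgeR's test, 0 were lower or higher at an unadjusted p below 0.05 and the median log2 fold change was 0.02. The alpha subunit genes Psma3 and Psma6 gave 0.09 and -0.19, the highest level of Psma6 being 338 CPM, in PBS 4, where no other library exceeded 211 CPM. Without PBS 4 the value for Psma6 was 0.07. The 4 proteasome activator genes had a median of 0.02, with Psme4 at 0.17 and Psme3 at 0.04, and the 6 tested peptidase genes one of -0.04, with the aminopeptidase genes Lap3 at 0.13 and Npepps at -0.07. In neither list did any gene reach an unadjusted p below 0.05.

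Among 6 chaperones and editors of peptide loading, 4 were negative, beside 50.6% of all tested genes. None reached an unadjusted p below 0.05, and the median was -0.08. Uggt1, which checks the folding of glycoproteins, averaged 206 ± 40.1 CPM in Poly(A:U) and 236 ± 23.3 CPM in PBS (SD, n = 5 each). Tapbpl, the tapasin-related peptide editor, was at 25.2 to 30.4 CPM in Poly(A:U) and 24.2 to 35.1 CPM in PBS. Their log2 fold changes were -0.23 and -0.20, with adjusted p of 0.695 each by edgeR, and -0.12 and -0.07 without PBS 1 to PBS 3. Without PBS 4 they were -0.24 and -0.28. There 1 of the 6, Tapbpl, was lower at an unadjusted p below 0.05, beside 929 of 13890 tested genes.

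Factors of the class I promoter and its repressors had a median of 0.06 over 13 genes, with 0 called. At an unadjusted p below 0.05, 0 were lower and 1 was higher, beside 3.19% and 4.11% of all tested genes. That gene was Nfyb, a subunit of the factor that binds CCAAT, at 79.4 ± 3.89 CPM in Poly(A:U) and 66.4 ± 8.04 CPM in PBS (SD, n = 5 each). Its log2 fold change was 0.23 ± 0.09 (SE; adjusted p = 0.677, edgeR), and 0.06 without PBS 1 to PBS 3. Atf1, of the CREB family, gave 0.16. Of 15 genes of interferon signalling 0 were called, and the median was -0.07. At that p 1 was lower and 1 higher, beside the same 3.19% and 4.11% of all tested genes. Without PBS 4, 4 were lower and 2 higher at that p, beside 929 and 1044 of 13890 tested genes. Stat2, of the type I interferon pathway, averaged 59.5 ± 8.48 CPM in Poly(A:U) and 71.0 ± 11.5 CPM in PBS, a log2 fold change of -0.28 ± 0.11. Its PBS 1 to PBS 3 lay at 73.3 to 86.5 CPM, above the Poly(A:U) range of 49.1 to 71.9 CPM, and PBS 4 and PBS 5 lay inside that range, so that without PBS 1 to PBS 3 the value was -0.04. Ifngr2, a chain of the interferon-gamma receptor, was at 103 to 114 CPM in Poly(A:U) and 83.0 to 103 CPM in PBS, a log2 fold change of 0.24 ± 0.08 (adjusted p of 0.677 for either by edgeR).

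The medians of the class II and interferon-stimulated lists changed direction when PBS 1 to PBS 3 were left out. Smaller medians did so too, that of interferon signalling from -0.07 to 0.03 and that of the core proteasome from 0.02 to -0.01. For the proteasome activators it went from 0.02 to -0.03. The 10 MHC class II genes had a median of -0.31, with 10 of 10 negative and 1 lower at an unadjusted p below 0.05, beside 50.6% and 3.19% of all tested genes. The 1 gene was Ciita, their transactivator, at 3.71 ± 1.12 CPM in Poly(A:U) and 5.31 ± 1.38 CPM in PBS (SD, n = 5 each). H2-DMa, which edits class II peptides, gave -0.39. In the 7 libraries other than PBS 1 to PBS 3, 1 of the 10 was negative, beside 7511 of 15199 tested genes. The median was 0.26, while Ciita was at -0.65 and H2-DMa at 0.09. Interferon-stimulated genes outside antigen presentation had a median of -0.46, with 12 of 15 negative and 2 lower at that p, beside 50.6% and 3.19% of all tested genes. These were Oasl1, at 6.80 ± 1.36 CPM in Poly(A:U) and 11.8 ± 5.16 CPM in PBS, and Ifitm3, at 1.72 ± 0.29 CPM in Poly(A:U) and 3.03 ± 1.23 CPM in PBS. For Oasl1, PBS 1 to PBS 3 were at 12.7 to 17.7 CPM, while PBS 4 at 7.47 CPM and PBS 5 at 5.51 CPM lay inside the Poly(A:U) range of 5.49 to 8.94 CPM. The highest fold change of the list was that of Rsad2, named after its value was seen, at 1.12 ± 1.04 (SE), with 9.31 to 34.9 CPM in Poly(A:U) and 0.342 to 24.9 CPM in PBS. With PBS 1 to PBS 3 left out, 5 of the 16 genes then tested were negative, beside the same 7511 of 15199. The median was 0.06, with Oasl1 at 0.03, Ifitm3 at -0.09 and Rsad2 at -0.09. Without PBS 4, the class II median was -0.46, with 10 of 10 negative and 0 lower at that p. That of the interferon-stimulated genes was -0.52, with 12 of 15 negative and 5 lower. Of the 13890 genes tested there, 6358 were negative and 929 lower at that p. No gene of either list passed edgeR's adjusted test, and no difference between these lists and the class I genes was tested.

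**Figure D4:**
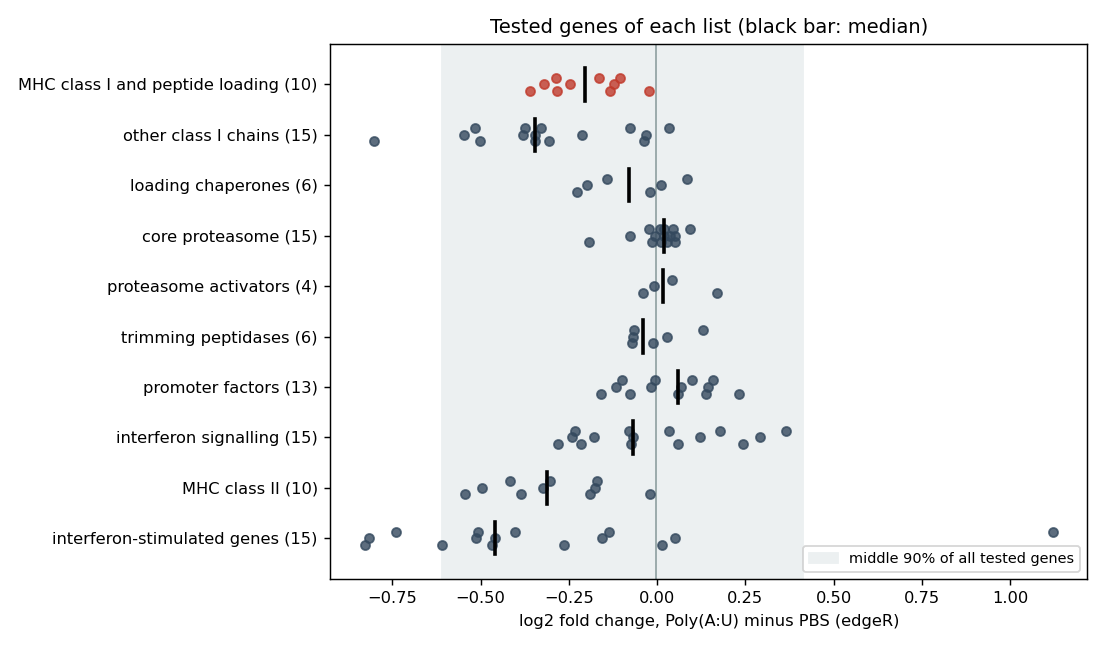
Log2 fold change, Poly(A:U) minus PBS by edgeR, of each tested gene in 10 lists, with the number of genes in brackets and a black bar at the median. The shaded band holds the middle 90% of all tested genes, from -0.61 to 0.41. Class I genes and other class I chains lie mostly left of 0, at medians of -0.21 and -0.34. So do MHC class II and interferon-stimulated genes, at -0.31 and -0.46, while core proteasome genes lie around it, at 0.02. The 10 class I genes, from -0.36 to -0.02, are inside the band.

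The genes whose levels over the 10 libraries were most like the mean of the class I genes were picked by Pearson's correlation among 10306 tested genes of at least 5 CPM, as a description with no test. H2-T23, which encodes the nonclassical heavy chain Qa-1, was the closest, at r = 0.947, and averaged 91.7 ± 9.50 CPM in Poly(A:U) and 114 ± 18.4 CPM in PBS (SD, n = 5 each). Plcl2 followed at 0.938, Chchd5 at 0.931, Gorasp2 at 0.927 and Il2rg, the common chain of the interleukin-7 and other receptors, at 0.926. Rnf181, Alg9, the cell death gene Bak1, Vipas39 and Evl had r between 0.915 and 0.919. The mean itself, as centred log2 CPM, was highest in PBS 2 at 0.32 and lowest in Poly(A:U) 5 at -0.25. It was -0.08 in PBS 4 and -0.03 in PBS 5, within the Poly(A:U) range, and 0.14 and 0.16 in PBS 1 and PBS 3, above that range.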

How the data were processed

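RNA-seq was analysed in 10 libraries, 5 Poly(A:U) and 5 PBS. The authors deposited, per the file headers, estimated counts and TPM for 142333 transcripts per library. DRAGEN, edgeR 3.38.4 and the build mm10 are listed in the submitters' processing notes. Counter settings, annotation and strand use were not stated. A gene table of normalized signal from the authors (13699 genes, column sums 945642 to 1043413) served as an alternative only.

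Estimated counts were summed per gene with GENCODE M21, which left out 538 transcripts with at most 0.0695% of reads, and rounded. CPM was scaled to the reads in genes. TPM was summed over transcripts. Genes were kept by edgeR's filterByExpr (minimum count 10, about 0.49 CPM in 5 libraries). Genes were tested in edgeR 4.0.16 under R 4.3.3 by robust quasi-likelihood F tests after TMM scaling, with treatment as the only term and Benjamini-Hochberg adjustment over 13729 genes, threshold 0.05, after a check on simulated data. SE was derived from the F statistic. Errors cover pups and counting together, and replicate libraries are separate pups per the series' design text. DESeq2 1.42.0 and limma 3.58.1 were alternatives. Ratios were compared by exact permutation (SciPy 1.17.1), and correlations by 100000 permutations.

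Members and lists were chosen with earlier results of these data known. Named genes are the members, 2 genes of smallest unadjusted p per pathway list, and the 10 most similar genes; any others are marked in the text as named after their values were seen. Marker lists are given as sums. Nrdc had no match in the annotation. Where genes overlap and strand was not used, reads cannot be told apart. This concerns Tap1 with Psmb9, and Tapbp with Zbtb22 (50.9 CPM). The other genes overlapping members averaged at most 5.53 CPM.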

Additional observations from a re-analysis of the deposited data

Results flagged for a closer look

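Within groups of 5 libraries, a value was singled out where one library's gap to its nearest neighbour exceeded 0.71 of the group's range. Of 70 such groups 9 met this, while about 1 in 20 would by chance. Among the class I genes, B2m was at 1206 CPM and Psmb9 at 101.8 CPM in PBS 2, both above the other PBS libraries. Nlrc5 was at 48.8 CPM in Poly(A:U) 5, above the other Poly(A:U) libraries. The TPM ratio of Psmb9 to Psmb6 was 0.428 in Poly(A:U) 1, high for its group, and that of Psmb10 to Psmb7 was 0.632 in PBS 4, low for its group. In the neighbouring lists, H2-Q7 was at 35.96 CPM in Poly(A:U) 3 and Lap3 at 36.4 CPM in Poly(A:U) 4, each high for its group. Psma6 was high at 338 CPM in PBS 4, and Tapbpl low at 24.2 CPM in the same library. PBS 4 had the highest sums of T cell and macrophage markers, and their part in these values was not tested.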

How the results depend on the processing

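All 10 genes had at least 26.5 CPM in each library. edgeR called 0 genes, against 13 by DESeq2 and 870 by limma voom with quality weights, which called 1 class I gene, Tap1, and had 7 of 10 lower at an unadjusted p below 0.05, beside 12.1% of all tested genes. With single libraries left out, the calls ran from 0 to 18, the class I genes called stayed at 0, and those lower at that p ran from 1 to 6. It was 1 when either PBS 2 or Poly(A:U) 4 was left out, beside 2.29% and 2.01% of all tested genes, the 6 came without PBS 4, beside 6.69%, and the 18 without PBS 5. The class I median ran from -0.27 to -0.16. The count of other class I chains lower at that p ran from 6 to 10 of 15, beside 1.94% to 6.69% of all tested genes. The ratio differences ran from -0.128 to -0.0746 (Psmb8), -0.23 to -0.12 (Psmb9) and -0.19 to -0.00089 (Psmb10). Psmb8 to Psmb5 fell below 0.05 without Poly(A:U) 1 (exact permutation adjusted p = 0.0476). Poly(A:U) 1 was the only Poly(A:U) library among the PBS ones. Leaving it out separates the groups, and the unadjusted p is then the smallest that the remaining libraries allow. The log2 fold change of Psmb10 ran from -0.113 to 0.0491, positive without Poly(A:U) 5.

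Without PBS 1 to PBS 3, 0 of 10 class I genes and 2 of 15 other chains were lower at that p, beside 5.14% of all tested genes. The class I median was -0.026, and the direction turned for Tap2 (0.0684), Tapbp (0.0749), Nlrc5 (0.0800), Psmb8 (0.0150), Psmb10 (0.0281) and the ratio of Psmb10 to Psmb7 (0.12). With name parts that libraries share as model terms, chosen after seeing the data, the counts were 0 and 3, beside 4.17% of all tested genes. Only PBS 4 with Poly(A:U) 5, and PBS 5 with Poly(A:U) 1, share a name part across treatments. The treatment difference in that fit therefore rests on these libraries alone. Tap2 (0.0244), Tapbp (0.0757) and Nlrc5 (0.24) turned. The cause was not tested. Leaving out PBS 1 to PBS 3 keeps 2 PBS libraries, PBS 4 and PBS 5.

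The replicate block used the numbers in the titles, which share only a number here: deviations of same-numbered libraries correlated between -0.183 and 0.14. PBS 4 and Poly(A:U) 5 share a part of their names, and PBS 5 and Poly(A:U) 1 share another. Their deviations correlated at 0.367, the highest of all pairs across the groups, and at 0.116. What these name parts stand for is not given in the names. With the block edgeR called 0 genes, 4 of 10 class I genes were lower at that p, beside 2.39% of all tested genes, and the median was -0.21. For the ratios, exact sign exchange within the 5 pairs cannot go below p = 0.0625. Other normalization factors, filters and coding transcripts alone kept all 10 genes negative.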
